A study of Homo sapiens with 18 samples.

Results

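The 52 genes described here encode ribosome biogenesis factors, the nucleolar proteins that process ribosomal RNA and assemble the ribosomal subunits. They were chosen by symbol from a list of factors of rRNA processing and subunit assembly, with earlier results of these data known. Shares of members set beside those of all genes therefore describe the list and do not test it. Measured were 50 of the 52, through 79 array features, out of 18334 genes in all. DDX18 and DDX52 were not analysed here. The cells were K562, an established human cell line from chronic myelogenous leukaemia. Gene expression was measured on 18 two-colour arrays, each of which set 2 RNA samples against each other. Untreated cells were given DMSO at 0 h and water at 2 h. Heteronemin-treated cells received 6 µM heteronemin, a sesterterpenoid from marine sponges, at 0 h and water at 2 h. TNFalpha-treated cells received DMSO at 0 h and, at 2 h, 10 ng/mL of TNFalpha, an inflammatory cytokine. Cotreated cells received both agents. All cells, thawed 10 days before treatment, were collected at 6 h, so that TNFalpha had acted for 4 h. The arrays set TNFalpha-treated against untreated cells, heteronemin-treated against untreated cells, and cotreated against TNFalpha-treated cells. Each of these 3 comparisons has 3 biological replicates, and each replicate is the mean of 2 arrays with exchanged dyes, so n = 3. All values below are log2 ratios of treated over control unless stated otherwise, and a gene was called where its adjusted p was under 0.05 in limma. These p-values use a spread per gene shared by the 3 comparisons, TNFalpha included, while each printed SD is of its own comparison. The fit takes same-numbered replicates as independent. The ratios come from a single cell line and from equal amounts of total RNA, and in such bulk samples fewer cells with a transcript and less of it per cell cannot be told apart.

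Ribosomes are made in the nucleolus, where RNA polymerase I transcribes a long precursor that is cut, modified and folded into the ribosomal RNAs. The small-subunit processome, built from the U3 snoRNP and the UtpA, UtpB and Mpp10 complexes, assembles on the start of this precursor. Box C/D and box H/ACA snoRNPs guide methylation and pseudouridylation, while separate sets of factors mature the large subunit and carry the pre-40S particle to the cytoplasm. Genes for these factors are known targets of the transcription factor MYC, which binds the E-box CACGTG, and proliferating leukaemic cells need them in quantity.

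Sequences around the transcription start are shown for 5 members whose values recur below, because, of 3 motifs searched, the E-box near the start differed most in share between members and other genes. Each runs from 250 bases before the start to 30 bases after it, 5′ to 3′, from RefSeq on GRCh38.p14, in lower case with the E-box CACGTG in capitals. The windows are chr12:101279855-101280134 on the plus strand for UTP20, chr9:33473895-33474174 on the minus strand for NOL6, chr21:44107149-44107428 on the plus strand for PWP2, and chrX:129905914-129906193 on the plus strand for UTP14A. IMP3, at chr15:75640195-75640474 on the minus strand, is added after its values were seen, as a member that fell in both heteronemin comparisons and is without the motif.
UTP20: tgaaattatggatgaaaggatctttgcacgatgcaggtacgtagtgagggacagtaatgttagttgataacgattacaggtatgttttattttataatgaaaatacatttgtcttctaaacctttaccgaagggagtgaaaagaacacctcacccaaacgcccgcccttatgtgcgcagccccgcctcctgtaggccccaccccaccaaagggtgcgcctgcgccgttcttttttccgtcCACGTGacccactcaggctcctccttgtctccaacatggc
NOL6: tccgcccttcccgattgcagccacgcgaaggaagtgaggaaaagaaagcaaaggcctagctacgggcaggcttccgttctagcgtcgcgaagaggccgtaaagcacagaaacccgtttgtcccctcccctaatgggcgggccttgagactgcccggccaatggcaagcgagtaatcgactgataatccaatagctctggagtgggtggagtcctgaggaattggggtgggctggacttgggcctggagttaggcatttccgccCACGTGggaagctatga
PWP2: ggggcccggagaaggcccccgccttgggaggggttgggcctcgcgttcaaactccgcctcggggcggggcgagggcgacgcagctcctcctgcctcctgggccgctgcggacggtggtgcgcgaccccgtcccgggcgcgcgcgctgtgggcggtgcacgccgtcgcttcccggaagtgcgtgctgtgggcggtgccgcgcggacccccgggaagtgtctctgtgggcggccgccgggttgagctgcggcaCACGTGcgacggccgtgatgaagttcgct
UTP14A: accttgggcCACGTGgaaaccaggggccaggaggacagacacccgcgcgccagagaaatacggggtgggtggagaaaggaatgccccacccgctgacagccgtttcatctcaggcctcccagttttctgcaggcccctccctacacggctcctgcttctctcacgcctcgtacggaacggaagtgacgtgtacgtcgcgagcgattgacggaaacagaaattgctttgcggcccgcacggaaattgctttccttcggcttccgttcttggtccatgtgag
IMP3: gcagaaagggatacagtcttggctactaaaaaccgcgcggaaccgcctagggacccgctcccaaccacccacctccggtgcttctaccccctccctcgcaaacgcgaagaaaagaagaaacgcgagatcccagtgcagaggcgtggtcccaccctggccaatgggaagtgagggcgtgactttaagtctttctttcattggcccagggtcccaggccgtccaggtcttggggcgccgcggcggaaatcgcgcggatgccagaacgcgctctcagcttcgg
The first transcribed base is counted as 1. The E-box began at base −10 in UTP20, 14 in NOL6, 2 in PWP2 and −241 in UTP14A. RefSeq windows of 300 bases, from 250 before to 50 after the start, were matched for 41 of the 50 members, some with more than 1 start, to 45 windows in all. CACGTG, which reads the same on both strands, lay in 18 of these 45 windows (40%). It lay in 7.26% of all 35116 windows and in 8.49% of the 20411 windows of measured genes. Within 50 bases of the start it was found in 37.8% of the members' windows and in 3.35% of those of measured genes. The ETS-type motif CCGGAAGT, sought on both strands, lay in 13.3% of the members' windows against 5.57% of those of measured genes, and GGGCGG, the core of an SP1 site, in 73.3% against 57.8%. Matches of the 3 motifs were counted separately, whether or not they shared bases. A match describes the letters and not a bound site. BOP1, MPHOSPH10, NOL10, NOLC1, NOP58, RRP12, RRP1B, RRS1 and UTP23 are without a window here.

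The replicates were not alike in spread. In heteronemin against untreated cells the SD of the log2 ratios over all genes was 0.329 in replicate 1, 0.195 in replicate 2 and 0.164 in replicate 3, and in cotreated against TNFalpha-treated cells it was 0.384, 0.215 and 0.173. Replicate 1 therefore stood apart in both heteronemin comparisons, and values without it are given beside those role groups and called members that it moved most. In TNFalpha against untreated cells the SD lay between 0.134 and 0.141. Median ratios over all genes were within 0.01 of 0 in every comparison. Ratios carry no level, so the identity of the cells was not checked from marker levels. Of 7 lymphoid markers CD3D, a T cell receptor chain, fell in both heteronemin comparisons (−0.37 ± 0.07 and −0.41 ± 0.12, SD, n = 3; limma adjusted p = 0.00980 and 0.00539), and was the only one called. The list ran both ways, with 4 of 7 means above 0 in each comparison, up to 0.37 and 0.38 in CD79A, a B cell receptor chain, and medians of 0.05 and 0.01. Of 8 monocyte and granulocyte markers 0 were called, or passed at an unadjusted p under 0.05 in limma, with medians of −0.02 and 0.01. Their part in the results was not tested.

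Heteronemin lowered transcripts of a subset of the ribosome biogenesis factors. Against untreated cells 6 of the 50 members fell and 0 rose: IMP3, UTP3, NHP2, UTP20, RRS1 and NOL6. That is 12% of members called lower, where 2.58% of all genes tested were called lower and 2.29% higher. In cotreated against TNFalpha-treated cells 8 members fell and 0 rose: IMP3, UTP3, NHP2, NOL6, RRP7A, RRS1, PWP2 and RRP9. Here 16% of members were called lower against 3.15% of all genes, with 3.39% of all genes called higher. In both comparisons 5 members fell (10% against 1.87% of all genes), namely IMP3, UTP3, NHP2, NOL6 and RRS1. Under TNFalpha alone 0 members were called, as were 0% of all genes. There the smallest limma adjusted p was 0.0567, in BCL3, and CXCL1, with a mean of 4.28, was not called. A count of 0 in this fit therefore does not show that genes were unchanged. At an unadjusted p under 0.05 the TNFalpha count was 1 member lower, UTP20, and 0 higher (0.775% and 0.944% of all genes). At that threshold 21 members were lower and 1 higher against untreated cells (9.68% and 8.5% of all genes), and 22 lower and 1 higher in cotreated cells (11.3% and 9.93%). In at least 1 heteronemin comparison 9 members fell (18% against 3.86% of all genes). Of these, IMP3, UTP3, NHP2, UTP20, RRS1, PWP2 and RRP9 each rest on 1 array feature, and NOL6 and RRP7A on 2 each.

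**Figure D1:**
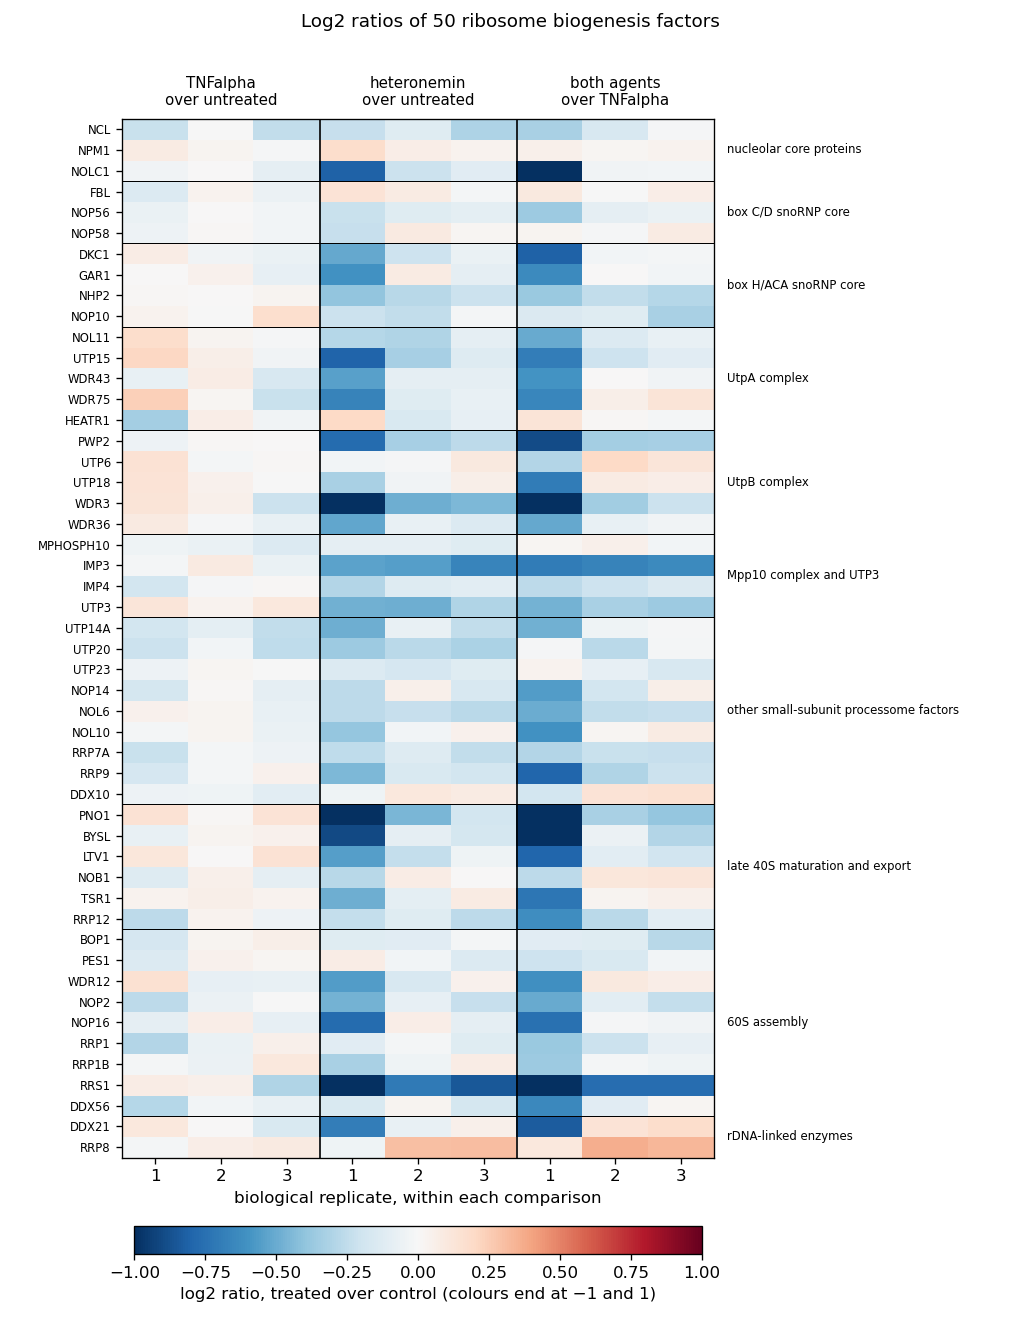
Log2 ratios of the 50 members (rows, grouped by role) in the 3 biological replicates of each comparison (columns), each cell being the mean of a dye-exchanged pair of arrays, with colours ending at −1 and 1. Blue cells fill most of the heteronemin columns, deepest in replicate 1, and IMP3 and RRS1 are blue in all 6 of them, while the TNFalpha columns stay pale.

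The lower ratios reached past the called members. Against untreated cells the mean ratio was below 0 in 45 members (90%; 46.7% of all genes), and all 3 replicates were below 0 in 31 members (62%; 19.2% of all genes) and above 0 in 1 (20.6% of all genes). In cotreated against TNFalpha-treated cells the mean was below 0 in 42 members (84%; 47.1% of all genes) and all 3 replicates in 30 (60%; 19.6% of all genes). The mean was below 0 in both comparisons in 42 members (33.3% of all genes). All 6 replicate values of both comparisons were below 0 in 27 members (54%; 10.7% of all genes), and all 6 were above 0 in 1 member, NPM1 (9.43% of all genes). The median over members was −0.21 in each heteronemin comparison and −0.02 under TNFalpha alone, where the median over all genes was 0.01, 0.01 and 0.00. By replicate the member median was −0.35, −0.11 and −0.11 against untreated cells and −0.51, −0.09 and −0.03 in cotreated cells, and over replicates 2 and 3 it was −0.11 and −0.07. It was therefore below 0 in every replicate and lowest in replicate 1 of both comparisons.

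**Figure D2:**
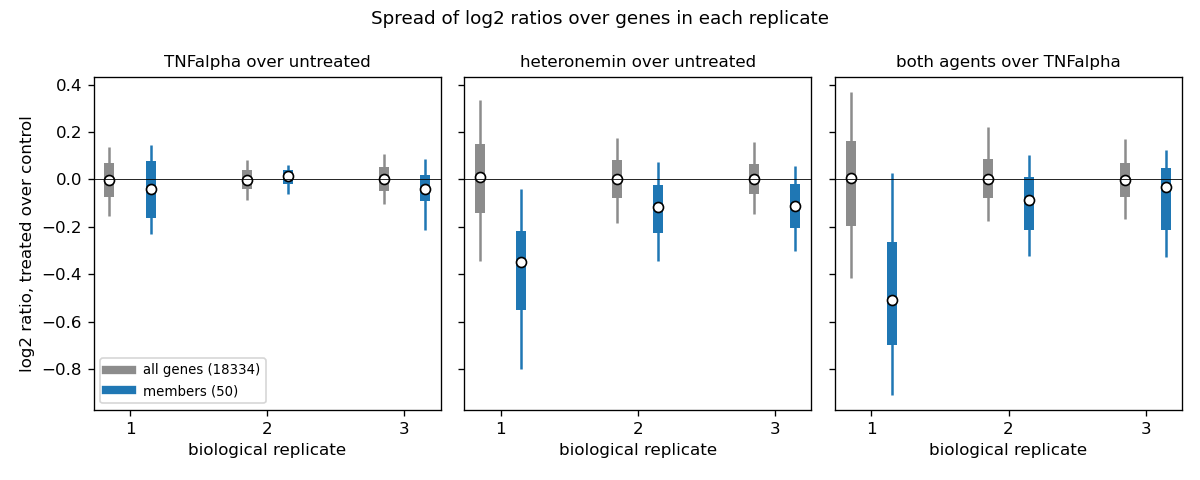
Spread of the log2 ratios over the 50 members (blue) and all 18334 genes (grey) in each replicate of the 3 comparisons, with a circle at the median, a thick bar between the quartiles and a thin bar between the outer deciles. The members lie below all genes in both heteronemin comparisons, by most in replicate 1, where both sets also spread most.

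The Mpp10 complex, which joins the U3 snoRNP in the small-subunit processome, held the smallest p of the members in both heteronemin comparisons, that of IMP3. Its subunit IMP3 gave −0.54, −0.55 and −0.66 against untreated cells and −0.70, −0.67 and −0.64 in cotreated cells. All 6 values lay close together and far below the TNFalpha values of −0.02, 0.09 and −0.06. Single arrays overlapped slightly, with a lowest of −0.36 under TNFalpha and a highest of −0.33 for heteronemin against untreated cells. IMP3 fell by 0.58 on the log2 scale (SD 0.07, n = 3; limma adjusted p = 0.000721), and in cotreated cells by 0.67 (SD 0.03; adjusted p = 0.000471), or 1.59-fold lower. UTP3, the human counterpart of yeast Sas10 and a processome factor, gave −0.48, −0.48 and −0.30 against untreated cells and −0.47, −0.32 and −0.37 in cotreated cells. No UTP3 value in either heteronemin comparison reached its TNFalpha values of 0.12, 0.03 and 0.11. Its single arrays overlapped, with a lowest of −0.16 under TNFalpha and a highest of −0.06 for heteronemin against untreated cells. UTP3 fell in both comparisons (−0.42 ± 0.11, adjusted p = 0.00414, and −0.39 ± 0.08, adjusted p = 0.00460). The scaffold of the complex, MPHOSPH10, did not pass: it gave −0.10 ± 0.02 against untreated cells (adjusted p = 0.214) and 0.02 ± 0.04 in cotreated cells (adjusted p = 0.845). IMP4, the third subunit, gave −0.18 ± 0.10 and −0.21 ± 0.06 (adjusted p = 0.127 and 0.0668). The subunits of this complex thus had unequal ratios on the same arrays.

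Among the 9 other processome factors, 2 fell against untreated cells and 3 in cotreated cells (2.58% and 3.15% of all genes fell). The group medians were −0.21 and −0.18 (−0.16 and −0.12 over replicates 2 and 3). NOL6, the counterpart of yeast Utp22, gave −0.26, −0.23 and −0.27 against untreated cells, the closest agreement among the called members. Its cotreated values were −0.50, −0.24 and −0.23, with replicate 1 the lowest. NOL6 fell in both comparisons (−0.25 ± 0.02, adjusted p = 0.0426, and −0.32 ± 0.15, adjusted p = 0.0137). Both of its array features were below 0 in each comparison, at −0.35 and −0.15 against untreated cells. RRP7A, whose yeast counterpart sits with Utp22 in the UtpC complex, gave −0.25, −0.13 and −0.25 against untreated cells and −0.29, −0.22 and −0.23 in cotreated cells. It fell in cotreated cells (−0.25 ± 0.04, adjusted p = 0.0242), and its value against untreated cells missed the threshold (−0.21 ± 0.07, adjusted p = 0.0555). RRP9, a protein of the U3 snoRNP itself, gave −0.79, −0.30 and −0.21 in cotreated cells, where it fell (−0.44 ± 0.31, adjusted p = 0.0473), and −0.45, −0.16 and −0.18 against untreated cells (adjusted p = 0.242). Its replicate 1 was the lowest in both. Without replicate 1 in all comparisons the values were −0.26 in cotreated cells and −0.17 against untreated cells (limma adjusted p = 0.00554 and 0.0383). With replicate 1 left out of either heteronemin comparison alone, RRP9 was not called in that comparison.

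UTP20, a very large processome scaffold made of HEAT repeats, was called in the absence of TNFalpha only. Against untreated cells it gave −0.37, −0.27 and −0.32 and fell (−0.32 ± 0.05, adjusted p = 0.0267). In cotreated cells it gave −0.01, −0.27 and −0.02, so that replicate 2 alone was low, and it was not called (−0.10 ± 0.15, adjusted p = 0.420). By the labels these ratios are over TNFalpha-treated cells, so they do not give the level of UTP20 against untreated cells. In replicates 1 and 3, where they lay near 0, the TNFalpha ratio of UTP20 was itself low, and a link was not tested. Under TNFalpha alone its values were −0.21, −0.03 and −0.25, the smallest p of any member there but not past the adjustment (limma adjusted p = 1.00). The difference between the heteronemin ratios with and without TNFalpha was 0.22 ± 0.19 (limma adjusted p = 1.00), so it did not pass. UTP14A, a nucleolar processome factor that in yeast activates a helicase, had the lowest TNFalpha mean of the members (−0.18, −0.10 and −0.25; mean −0.18, adjusted p = 1.00). Its heteronemin values were −0.48, −0.08 and −0.24 against untreated cells and −0.48, −0.05 and −0.01 in cotreated cells, called in neither.

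The UtpA and UtpB complexes, which bind the start of the precursor first, had group medians of −0.24 each against untreated cells and −0.21 and −0.20 in cotreated cells. Both medians were lowest in replicate 1. Over replicates 2 and 3 the medians were −0.12 and −0.10 against untreated cells and −0.01 and −0.05 in cotreated cells. By replicate the cotreated medians were −0.60, 0.00 and −0.03 for UtpA and −0.70, −0.07 and −0.03 for UtpB. Of their 10 members, 5 in each complex, only PWP2 was called, and only in cotreated cells (3.15% of all genes fell there). PWP2, a UtpB subunit of WD repeats, gave −0.77, −0.33 and −0.26 against untreated cells and −0.90, −0.34 and −0.33 in cotreated cells. Its 6 values were all below its TNFalpha values of −0.05, 0.01 and 0.01. It fell in cotreated cells (−0.52 ± 0.32, adjusted p = 0.0402), while the value against untreated cells did not pass (−0.45 ± 0.28, adjusted p = 0.0791). Without replicate 1 the values were −0.34 in cotreated cells and −0.30 against untreated cells. WDR3, also of UtpB, had a lower mean but a wider spread: −1.07, −0.49 and −0.45 against untreated cells (adjusted p = 0.0678), and −1.10, −0.35 and −0.21 in cotreated cells (adjusted p = 0.102). HEATR1, a UtpA subunit known to support transcription by RNA polymerase I, lay near 0 (−0.01 ± 0.18 and 0.04 ± 0.08). Its 2 features differed in sign, at −0.13 and 0.10 against untreated cells and −0.07 and 0.15 in cotreated cells, so its means are uncertain. Within the complexes, then, ratios ran from about the level of all genes to well below it.

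Of the snoRNP core proteins, NHP2 was called in both comparisons. NHP2 is a core protein of the box H/ACA snoRNPs, together with DKC1, the pseudouridine synthase, GAR1 and NOP10. NHP2 gave −0.39, −0.27 and −0.21 against untreated cells and −0.37, −0.25 and −0.28 in cotreated cells. Its TNFalpha values were 0.01, 0.00 and 0.03. Single arrays of NHP2 overlapped, with a lowest of −0.19 under TNFalpha and a highest of −0.08 and −0.13 in the heteronemin comparisons. NHP2 fell by 0.29 (SD 0.09, adjusted p = 0.0107) and by 0.30 (SD 0.06, adjusted p = 0.00815). The group medians were −0.23 and −0.25, and over replicates 2 and 3 −0.13 and −0.12. The other H/ACA proteins had means of −0.26 (DKC1), −0.20 (GAR1) and −0.16 (NOP10) against untreated cells, and none was called. The box C/D proteins stood nearer 0, with medians of −0.04 and 0.03 and 0 of 3 called by limma. At an unadjusted p under 0.05 in limma 1 was lower in each comparison, NOP56, beside 9.68% and 11.3% of all genes. FBL, the methyltransferase fibrillarin, gave 0.07 ± 0.08 and 0.05 ± 0.05, and NOP56 gave −0.15 ± 0.07 and −0.17 ± 0.17. The 3 features of NOP56 differed in sign, from −0.33 to 0.06 against untreated cells and from −0.40 to 0.04 in cotreated cells.

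The 60S assembly factor RRS1, which in yeast helps to place the 5S RNP in the large subunit, had the lowest mean of all members in both heteronemin comparisons. It gave −1.79, −0.70 and −0.84 against untreated cells and −1.75, −0.76 and −0.76 in cotreated cells. Replicate 1 was the lowest in both, and all 6 values lay below the TNFalpha values of 0.07, 0.05 and −0.30. Single arrays overlapped, with a lowest of −0.72 under TNFalpha and a highest of −0.37 and −0.56 in the heteronemin comparisons. RRS1 fell (−1.11 ± 0.59, adjusted p = 0.0336, and −1.09 ± 0.57, adjusted p = 0.0293), ratios 2.16-fold and 2.13-fold lower. Without replicate 1 in all comparisons the values were −0.77 and −0.76 (limma adjusted p = 0.00135 and 0.00103). With replicate 1 left out of either heteronemin comparison alone, RRS1 was not called in that comparison. The other 8 members of the group were not called, and the group medians were −0.10 and −0.22 (−0.07 and −0.09 over replicates 2 and 3). The subunits of the PeBoW complex, which acts in early maturation of the large subunit, had means of −0.03 (PES1), −0.08 (BOP1) and −0.23 (WDR12) against untreated cells and −0.13, −0.17 and −0.15 in cotreated cells. NOP2, an rRNA methyltransferase, gave −0.26 ± 0.20 and −0.28 ± 0.21 (adjusted p = 0.176 and 0.119).

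The 6 factors of late 40S maturation and export had group medians of −0.24 and −0.35, and limma called 0. At an unadjusted p under 0.05 in limma 1 and 4 were lower, beside 9.68% and 11.3% of all genes. Over replicates 2 and 3 the medians were −0.14 and −0.16, and by replicate the cotreated medians were −0.76, −0.08 and −0.15. PNO1, which in the pre-40S particle holds back the final cut at the end of the small-subunit RNA, had the second-lowest cotreated mean of the members. It gave −1.19, −0.46 and −0.18 against untreated cells and −1.59, −0.32 and −0.39 in cotreated cells. Replicate 1 was far below the others, and neither value passed (−0.61 ± 0.52, adjusted p = 0.233, and −0.77 ± 0.71, adjusted p = 0.110; without replicate 1, −0.32 and −0.36). BYSL, the counterpart of yeast Enp1, had the same shape, with −0.90, −0.09 and −0.17 and, in cotreated cells, −1.02, −0.06 and −0.29. NOB1, the nuclease that makes that final cut, gave −0.28, 0.08 and 0.00 against untreated cells and −0.26, 0.11 and 0.12 in cotreated cells. Its replicate 1 alone was below 0 in both. RRP12, an export factor, gave −0.21 ± 0.08 and −0.33 ± 0.26 (adjusted p = 0.288 and 0.0726).

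Means above 0 in both heteronemin comparisons were found for RRP8, NPM1, FBL, DDX10 and UTP6. RRP8 is a methyltransferase that modifies large-subunit RNA and belongs to a complex silencing rDNA. It gave −0.04, 0.30 and 0.31 against untreated cells and 0.10, 0.36 and 0.33 in cotreated cells, the highest member mean in both. It was not called (0.19 ± 0.20, adjusted p = 0.242, and 0.27 ± 0.14, adjusted p = 0.0825). Without replicate 1 in all comparisons RRP8 rose in both (0.30, adjusted p = 0.00259, and 0.35, adjusted p = 0.00117). With replicate 1 left out of either heteronemin comparison alone, RRP8 was not called in that comparison. DDX21, a helicase that couples rDNA transcription to rRNA processing, was split by replicate, at −0.69, −0.08 and 0.05 against untreated cells and −0.83, 0.13 and 0.18 in cotreated cells. The abundant nucleolar proteins were not called. Nucleolin (NCL) gave −0.22 ± 0.09 and −0.16 ± 0.16 (adjusted p = 0.138 and 0.230), and its 2 features differed in sign, at −0.52 and 0.08 against untreated cells. NPM1, or nucleophosmin, gave 0.09 ± 0.08 and 0.03 ± 0.01, a value that is uncertain because near-identical pseudogene copies could share its 6 features.

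**Figure D3:**
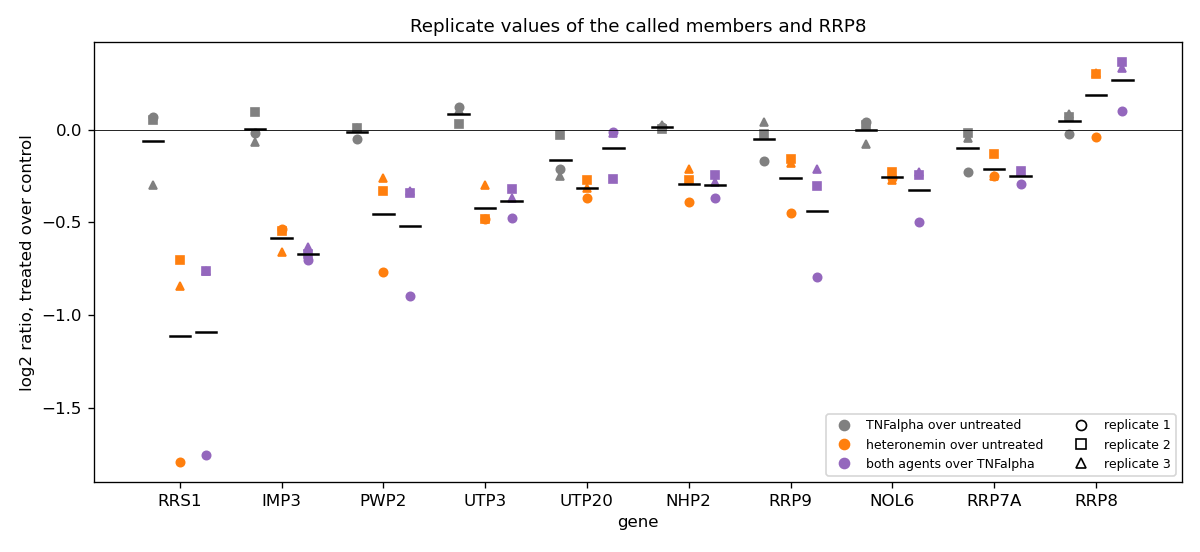
Log2 ratio (vertical axis) of the 9 members called in at least 1 heteronemin comparison and of RRP8, with 1 symbol for each of the 3 biological replicates and a bar at their mean, for TNFalpha (grey), heteronemin (orange) and both agents over TNFalpha (purple). IMP3, UTP3 and NHP2 have tight replicates below the grey ones, RRS1, PWP2 and RRP9 have replicate 1 (circles) far below the others, and RRP8 lies mostly above 0.

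The question of whether TNFalpha altered the response to heteronemin is addressed by the difference between both heteronemin comparisons, which share no RNA on any array. For 0 of 50 members did this difference pass in limma, as for 0% of all genes. At an unadjusted p under 0.05 it counted 1 member higher and 0 lower, beside 1.35% and 1.24% of all genes. With the heteronemin comparisons alone and a replicate block, which pairs the same-numbered replicates, it again passed for 0 members and 0 genes. At an unadjusted p under 0.05 this paired fit counted 1 member higher and 0 lower, beside 3.3% and 2.27% of all genes. Within replicate numbers the difference was above 0 in all 3 in 8 members (16%; 15.5% of all genes) and below 0 in all 3 in 3 (6%; 13.4%). MPHOSPH10 was among the 8, with 0.11, 0.14 and 0.10 (limma adjusted p = 1.00, and 0.806 in the paired fit). The means had the same sign in 47 of 50 members (94%; 72.9% of all genes). The cotreated value was the lower in 31 members (49.3% of all genes) and the higher in 19, with a median difference of −0.01 and a largest one of 0.22 in UTP20. IMP3 differed by −0.09 ± 0.10 and RRP9 by −0.18 ± 0.16 (adjusted p = 1.00 for each). A difference that misses the threshold with 3 replicates does not show that the responses were equal.

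**Figure D4:**
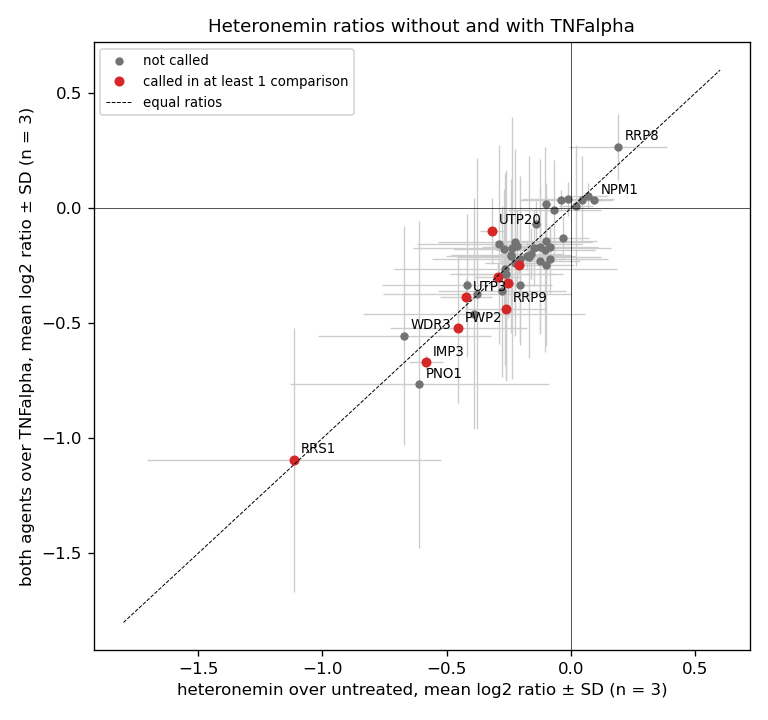
Mean log2 ratio of each of the 50 members in heteronemin over untreated (horizontal axis) and in both agents over TNFalpha (vertical axis), with SD bars (n = 3), red for members called in at least 1 of these comparisons and a dashed line at equal ratios. Most members lie near the line in the lower left, RRS1 is farthest out at −1.11 and −1.09, UTP20 is above the line and RRP8 is at the upper right.

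TNFalpha alone left the members near 0. The mean ratios ran from −0.18 in UTP14A to 0.10 in PNO1, with 34 members below 0 and 16 above (68% below; 50.5% of all genes). All 3 replicates were below 0 in 8 members (16%; 12.4% of all genes) and above 0 in 5. No member was below 0 on all 6 arrays (1.27% of all genes). Under heteronemin this was the case for 19 members against untreated cells (38%; 7.43% of all genes) and 14 in cotreated cells (28%; 7.07%). After UTP20, the members with the smallest p were NCL (−0.16 ± 0.13), MPHOSPH10 (−0.08 ± 0.05) and RRP7A (−0.10 ± 0.11), each with a limma adjusted p of 1.00. By its labels, TNFalpha against untreated cells has untreated cells in common with the heteronemin comparison and TNFalpha-treated cells, on the opposite side, with the cotreated one, so the values are set side by side only. Whether the same RNA extracts were used is not given in the labels. Deviations of same-numbered replicates correlated across genes at −0.21, 0.03 and −0.09 between TNFalpha and heteronemin. Between TNFalpha and cotreatment they correlated at −0.33, −0.22 and −0.27.

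The number of calls differed with the replicates that entered the fit. The SD of a member over replicates had a median of 0.17 against untreated cells and 0.25 in cotreated cells, beside 0.09 under TNFalpha. Replicate 1 was the lowest of the 3 in 35 members against untreated cells (70%; 40.7% of all genes) and in 41 in cotreated cells (82%; 44.7%), and in 32 members in both (64%; 29.2%). Below −0.5 in replicate 1 were 17 members against untreated cells (34%; 5.07% of all genes) and 26 in cotreated cells (52%; 6.82%). In replicates 2 and 3 there were 2 each (4%), beside 0.938% and 0.611% of all genes against untreated cells and 1.01% and 0.725% in cotreated cells. Without replicate 1 in all comparisons, 12 members fell and 1 rose against untreated cells (6.69% and 7.17% of all genes), and 12 fell and 3 rose in cotreated cells (8.18% and 10.4%). All 6 and all 8 members named above were among those that fell. Added against untreated cells were PWP2 (−0.30), WDR3 (−0.47), PNO1 (−0.32), RRP7A (−0.19), RRP9 (−0.17) and UTP15 (−0.23), a UtpA subunit, and in cotreated cells PNO1 (−0.36), IMP4 (−0.18), WDR3 (−0.28) and BOP1 (−0.20). Beside RRP8, DDX10, a helicase of the processome, and UTP6, a UtpB subunit, rose there by 0.15 and 0.16. With all replicates their cotreated means were 0.04 and 0.01 (limma adjusted p = 0.787 and 0.956). The 2 features of DDX10 differed in sign, at −0.08 and 0.15 in cotreated cells, and BOP1 was below 0 on 3 of 6 arrays there. With replicate 2 or replicate 3 left out of all comparisons, 0 members were called in either comparison.

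Same-numbered replicates of both heteronemin comparisons deviated together. In a fit of these comparisons alone with a replicate block, 27 members fell and 1 rose against untreated cells (9.03% and 8.18% of all genes), and 26 fell and 1 rose in cotreated cells (10.1% each). All members called without the block were among them, and the member that rose was RRP8. This fit, chosen after seeing the data, takes the differences between replicates out of the error, so it speaks of these 3 replicates. In the opposite direction, with a trended and robust prior for the spread, 0 members were called against untreated cells and 2 in cotreated cells, IMP3 and UTP3 (adjusted p = 0.0441 each). With each comparison fitted alone, 0 were called in both.

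Other parts of the pathway were listed without the 50 members. Of 14 measured genes of the RNA polymerase I machinery, 3 fell and 1 rose against untreated cells and 2 fell and 1 rose in cotreated cells, with medians of −0.17 and −0.12. Of all genes 2.58% fell and 2.29% rose in the former and 3.15% and 3.39% in the latter, the shares beside which the counts of the following lists stand too. POLR1G, a subunit of the enzyme, gave −1.07, −0.75 and −0.81, then −0.90, −0.81 and −0.75 in cotreated cells, and fell (−0.88 ± 0.17, adjusted p = 0.000721, and −0.82 ± 0.07, adjusted p = 0.000668). TAF1D, a subunit of the SL1 promoter factor, gave 0.64, 0.88 and 0.95, then 0.65, 1.11 and 0.97, and rose (0.82 ± 0.16, adjusted p = 0.00251, and 0.91 ± 0.24, adjusted p = 0.00155). POLR1H, the subunit that cuts back the transcript, fell (−0.29, adjusted p = 0.0240, and −0.26, adjusted p = 0.0293). These changes thus ran in both directions within the same machinery.

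Of 38 further 60S factors 7 fell and 0 rose in each comparison, with medians of −0.17 and −0.16 (−0.13 and −0.14 over replicates 2 and 3). NIP7, a factor that binds the pre-60S particle, gave −0.47, −0.98 and −0.91, then −0.67, −0.98 and −0.88, and fell (−0.79 ± 0.28, adjusted p = 0.00403, and −0.84 ± 0.16, adjusted p = 0.00281). In NIP7 replicate 1 was the least changed, unlike in RRS1. SENP3, a SUMO protease of 60S maturation, fell in both (−0.44 and −0.32), as did MRTO4, which helps to build the ribosomal stalk (−0.39 and −0.43). FTSJ3, an rRNA methyltransferase, fell against untreated cells (−0.37 ± 0.05, adjusted p = 0.0229) and gave −0.24 ± 0.17 in cotreated cells (adjusted p = 0.0888). Of 23 further 40S factors 1 fell against untreated cells and 2 in cotreated cells (2.58% and 3.15% of all genes fell), with medians of −0.08 and −0.07 (−0.05 and −0.01 over replicates 2 and 3). UTP11, a processome factor, fell in both (−0.48 ± 0.20, adjusted p = 0.0105, and −0.59 ± 0.10, adjusted p = 0.00355), and TSR3, which modifies small-subunit RNA, in cotreated cells (−0.35 ± 0.10, adjusted p = 0.0259). Of 13 subunits and cofactors of the RNA exosome, which trims rRNA ends, 2 fell in each, EXOSC4 (−0.62 and −0.60) and EXOSC7 (−0.35 and −0.44), with medians of −0.11 and −0.10 (−0.05 and −0.01 over replicates 2 and 3). Under TNFalpha alone limma called 0 genes of these lists (1, FTSJ3, at an unadjusted p under 0.05).

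MYC itself was split by replicate. It gave −1.60, 0.06 and 0.14 against untreated cells and −2.04, 0.06 and 0.17 in cotreated cells, so that it was low in replicate 1 alone, and it was not called (adjusted p = 0.628 and 0.476). Of the 10 genes of the MYC and MAX network, 1 rose against untreated cells, MXD1, a repressor that pairs with MAX (0.49 ± 0.15, adjusted p = 0.0330). In cotreated cells MXD1 gave 0.36 ± 0.21 (adjusted p = 0.0848) and 0 were called. The part of MYC in the members' values of replicate 1 was not tested.

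The median ratios of members with and without the E-box lay close together. The median was −0.25 in 18 members with CACGTG in the window and −0.22 in 23 without it against untreated cells, and −0.21 in each in cotreated cells. Called lower were 2 of the 18 and 3 of the 23 against untreated cells, and 3 and 4 in cotreated cells (2.58% and 3.15% of all genes). These values rest on means over all 3 replicates and were not split by replicate. The part of the E-box in the ratios was not tested. Of the called members, IMP3, UTP3, NHP2 and RRP7A lack the motif in the window, UTP20, NOL6, PWP2 and RRP9 hold it, and RRS1 is without a window. PNO1, called in neither comparison with all replicates, holds it too.

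**Figure D5:**
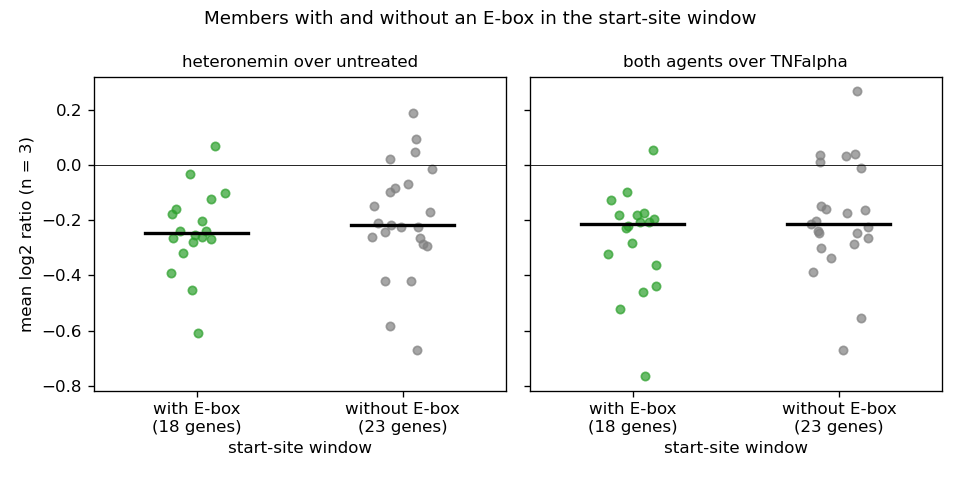
Mean log2 ratio (n = 3) of the members with (green) and without (grey) CACGTG in the window around the transcription start, in each heteronemin comparison, with a bar at the median and points spread sideways for sight only. The sets overlap over nearly their whole range in both panels.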

How the data were processed

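The authors' deposited values are log2 ratios, 1 for each of 45220 features on each of 18 arrays, made with limma per the submitters' processing notes. For limma's version, background correction, normalization and any scaling between arrays, the entry is: not given in the sources used here. Array medians lay between −0.0145 and 0.0669. Ratios were read as treated over control, which rests on the titles. Like sign in a pair of dye-exchanged arrays bears only on whether both arrays are oriented alike. The correlation of these pairs across genes was 0.473, 0.484 and 0.315 for heteronemin and 0.513, 0.510 and 0.259 for cotreatment. For TNFalpha it was 0.0331, 0.243 and 0.106. Intensities were not used, so the number of arrays limits the precision.

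Features with 1 annotated gene (31332 of 31425 annotated, 93 having several) were averaged per gene, 18334 genes in all, and then over each dye-exchanged pair. Of the members, 29 have 1 feature and 21 several, whose signs were mixed in 6, 7 and 9 members under heteronemin, cotreatment and TNFalpha. The 9 values per gene (3 biological replicates per comparison, per the labels and the series' design text) entered a limma fit (version 3.58.1, R 4.3.3) that had a mean for each comparison, a shared moderated spread and two-sided p-values adjusted by Benjamini-Hochberg over all genes. The procedure was tested on simulated data with independent errors and the same spread per gene in all replicates. The wider replicate 1 and the pairing of replicates were not simulated, so this does not check the calls under them. Deviations of same-numbered replicates correlated at 0.781, 0.626 and 0.622 between the heteronemin comparisons, so the numbers pair these, and at −0.326 to 0.0306 between either and TNFalpha.

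Members and lists were chosen with earlier results of these data known. Named are called members, the 6 (TNFalpha: 4) with the smallest p, the highest and lowest means, up to 3 called genes of each other list and MYC. Further members illustrate their role group and were chosen after their values were seen, as were DDX10, UTP6 and the other members added without replicate 1. Alternatives were the replicate block, other priors, each comparison alone, other feature and array summaries, array centring and scaling, and each replicate left out.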

Additional observations from a re-analysis of the deposited data

How the results depend on the processing

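With each comparison fitted alone, 0 genes and 0 members were called in both heteronemin comparisons, and with a trended and robust prior 0 genes and 0 members against untreated cells and 150 lower and 126 higher genes, 2 of them members, in cotreated cells. With arrays centred and scaled, 764 genes and 12 members were called lower against untreated cells. With arrays kept apart in a random block, 962 lower and 769 higher genes and 14 lower members were called against untreated cells, and 1103 lower and 1070 higher genes, 17 lower members and 1 higher in cotreated cells. With the replicate block over the heteronemin comparisons alone, an alternative chosen after seeing the data, the counts were 1655 lower and 1499 higher genes with 27 lower members and 1 higher against untreated cells, and 1858 and 1859 genes with 26 and 1 members in cotreated cells. With the replicate block over 3 comparisons, 9 members were lower against untreated cells, without NOL6, and 12 lower and 1 higher in cotreated cells. Genes called higher under TNFalpha numbered 6 alone, 7 with the replicate block, 3 scaled and 32 with arrays kept apart, against 0. Leaving out a replicate gave, under TNFalpha, 0 to 3 lower and 0 to 59 higher genes and a member median of −0.04 to −0.01. Against untreated cells it gave 0 to 1226 lower and 2 to 1314 higher genes, 0 to 12 lower and 0 to 1 higher members and a median of −0.25 to −0.11. Of these, leaving out a heteronemin replicate alone gave 74 to 261 lower and 89 to 203 higher genes, and replicates 2 or 3 everywhere 0 to 7 and 2 to 13. In cotreated cells it gave 0 to 1499 and 2 to 1898 genes, 0 to 12 and 0 to 3 members and a median of −0.30 to −0.07. Of these, leaving out a cotreated replicate alone gave 157 to 383 lower and 179 to 641 higher genes. Without heteronemin replicate 1, 2 or 3 alone, 2, 2 and 3 of the 6 calls against untreated cells were kept, IMP3 and UTP3 each time, and without cotreated replicate 1, 2 or 3, 4, 3 and 4 of 8. Leaving out TNFalpha replicate 1, 2 or 3, which enters only through the shared spread, kept 4, 4 and 4 of 6 and 5, 5 and 5 of 8. The difference with minus without TNFalpha gave 0 to 3 lower genes, 0 members and a median of −0.089 to 0.12, reversed to 0.12 without cotreated replicate 1. MPHOSPH10 in cotreated cells, not called, ran from −0.0026 to 0.037, reversed without replicate 2. Of the other recomputed values of single genes, 334 kept their direction and side of the threshold, 79 lost a call and 29 gained one. The cause was not tested. Medians of features and centring left 6 and 8 members called.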
